A study of Rattus norvegicus with 3 samples.

Results

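The 9 genes described here, Tcf7, Lef1, Bcl11b, Gata3, Tcf12, Runx1, Ikzf1, Id3 and Sox4, code for transcription regulators of the T lineage. They were chosen by name, as 9 of the 34034 gene names measured, and were followed along the thymocyte labels from DN (double negative) through DP (double positive) to mature cells. The rats were of the inbred Lewis strain and 8 weeks old, and the labels name no treatment or genetic change. A thymocyte library and a library of sorted stromal cells negative for CD45, a blood-cell surface protein, were made as droplet single-cell RNA libraries, with 1 sample each, so no test was possible and no p-value is given. How many animals gave each library is not given in the sources used here. A spatial section of the same organ was not analysed here.

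T cell precursors enter the thymus without the coreceptors CD4 and CD8, gain both, and keep 1 of them after their receptor has been tested against self. TCF1 (Tcf7) and LEF1 (Lef1) bind DNA through an HMG box and act from T-lineage entry to CD4 and CD8 choice. E proteins such as HEB (Tcf12) hold cells in the stages of receptor rearrangement, and ID3, a protein without a DNA-binding region, pairs with E proteins and blocks them after receptor signals. BCL11B, GATA3, RUNX1 and IKAROS (Ikzf1) set T-lineage identity and the CD4 or CD8 fate, and SOX4 is a relative of TCF1 and LEF1.

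The thymocyte library held 8574 barcodes, of which 8546 carried a label by the authors and 38 were also barcodes of the stromal library. The labelled cells gave 64440495 UMIs (molecular barcodes that mark single captured RNA molecules), and 21 labels had at least 20 cells. Levels are CPM, UMIs of a gene per 1000000 UMIs of the label, with 95% exact Poisson intervals that cover counting error only. The stage order runs over 13 labels: DN, DP-P, DP, Pre DP-sig, DP-sig, 4 immature and 4 mature labels. The labels came from expression, so the 9 genes may have helped to set them, and differences between labels are descriptions. Cells are not replicates, and fewer transcripts per cell cannot be told apart from more of other RNA in the same cells on the CPM scale.

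Depth differed by label. The median was 23190 UMIs per cell in 390 cells labelled DN, 15439 in 848 cells labelled DP-P, 3205.5 in 5202 cells labelled DP and 4010.0 in 295 cells labelled DP-sig. Mature labels had medians of 7964 to 15655 UMIs. Genes of the mitochondrion took 3.72% of UMIs in DN, 8.42% in DP and 7.56% in DP-sig.

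The label DN was borne out by its markers only in part. Cd8a, a coreceptor chain, had 702 CPM there and Cd4 had 149.7 CPM. Il2ra, a receptor chain of early double-negative cells, had 3.51 CPM, against 67.5 in DP. Kit went the other way, with 14.3 CPM against 1.32 in DP. Ptcra and Dntt, genes of receptor rearrangement stages, were present at 272 and 315 CPM, against 208 and 864.5 CPM in DP. Of the 390 cells, 192 lay in the authors' cluster DN, 151 in cluster DP-P2 and 36 in cluster DP-P3. A UMI of Mki67 or Top2a, genes of dividing cells, was held by 382 of the 390. These cells are therefore called "cells labelled DN". The DP label held Rag1 at 1952 CPM, Cd4 at 1350.1 CPM and Cd8a at 1497 CPM. Markers of receptor signals set DP-sig apart from DP, with Cd69 at 193 CPM against 5.55 CPM in DP and Itm2a at 474 against 12.6 CPM. Itm2a was higher still in Immature CD4-1, at 1027 CPM, and Cd69 in AgoSel1, an agonist-selected label, at 346 CPM. DP-sig held Cd4 at 98.6 CPM and Cd8a at 234 CPM, both below cells labelled DN, so these 2 genes did not bear out its name. Mature CD4-1 held Klf2 at 481 CPM and S1pr1 at 219.5 CPM, against 17.7 and 1.32 CPM in DP. Mature CD4-2 had 348.5 and 152.3 CPM of these genes, and Mature CD8-1 had 299.6 and 161.4 CPM. Mature CD8-2 had 188.5 and 29 CPM, and its S1pr1 was below the 62.8 CPM of Immature CD8-2. Rag1 was at 199.4 CPM in Mature CD4-2, against 10.8 to 21.1 CPM in the other mature labels, so its markers were mixed.

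Tcf12 and Id3, the E protein and its antagonist, were highest at different stages. Tcf12 was at 904 CPM in cells labelled DN, 1205 in DP-P, 3604 in DP, 2629 in Pre DP-sig and 1353 in DP-sig. In the immature labels it lay between 643 and 1146 CPM, and in the mature labels between 517 and 1149 CPM. DP was thus its highest label, 6.97-fold above Mature CD8-2, its lowest. Id3 was at 23.5 CPM in cells labelled DN, 28.8 in DP-P and 25.2 in DP, then at 165.8 in Pre DP-sig and 366 in DP-sig. It was at 289 CPM in Immature CD4-1, 237 in Immature CD4-2, 147 in Immature CD8-1 and 85.0 in Immature CD8-2. The mature labels had 248 CPM in CD4-1, 242 in CD4-2, 145.6 in CD8-1 and 295 in CD8-2. No interval of the 10 labels from Pre DP-sig on reached those of the 3 earlier labels.

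**Figure D1:**
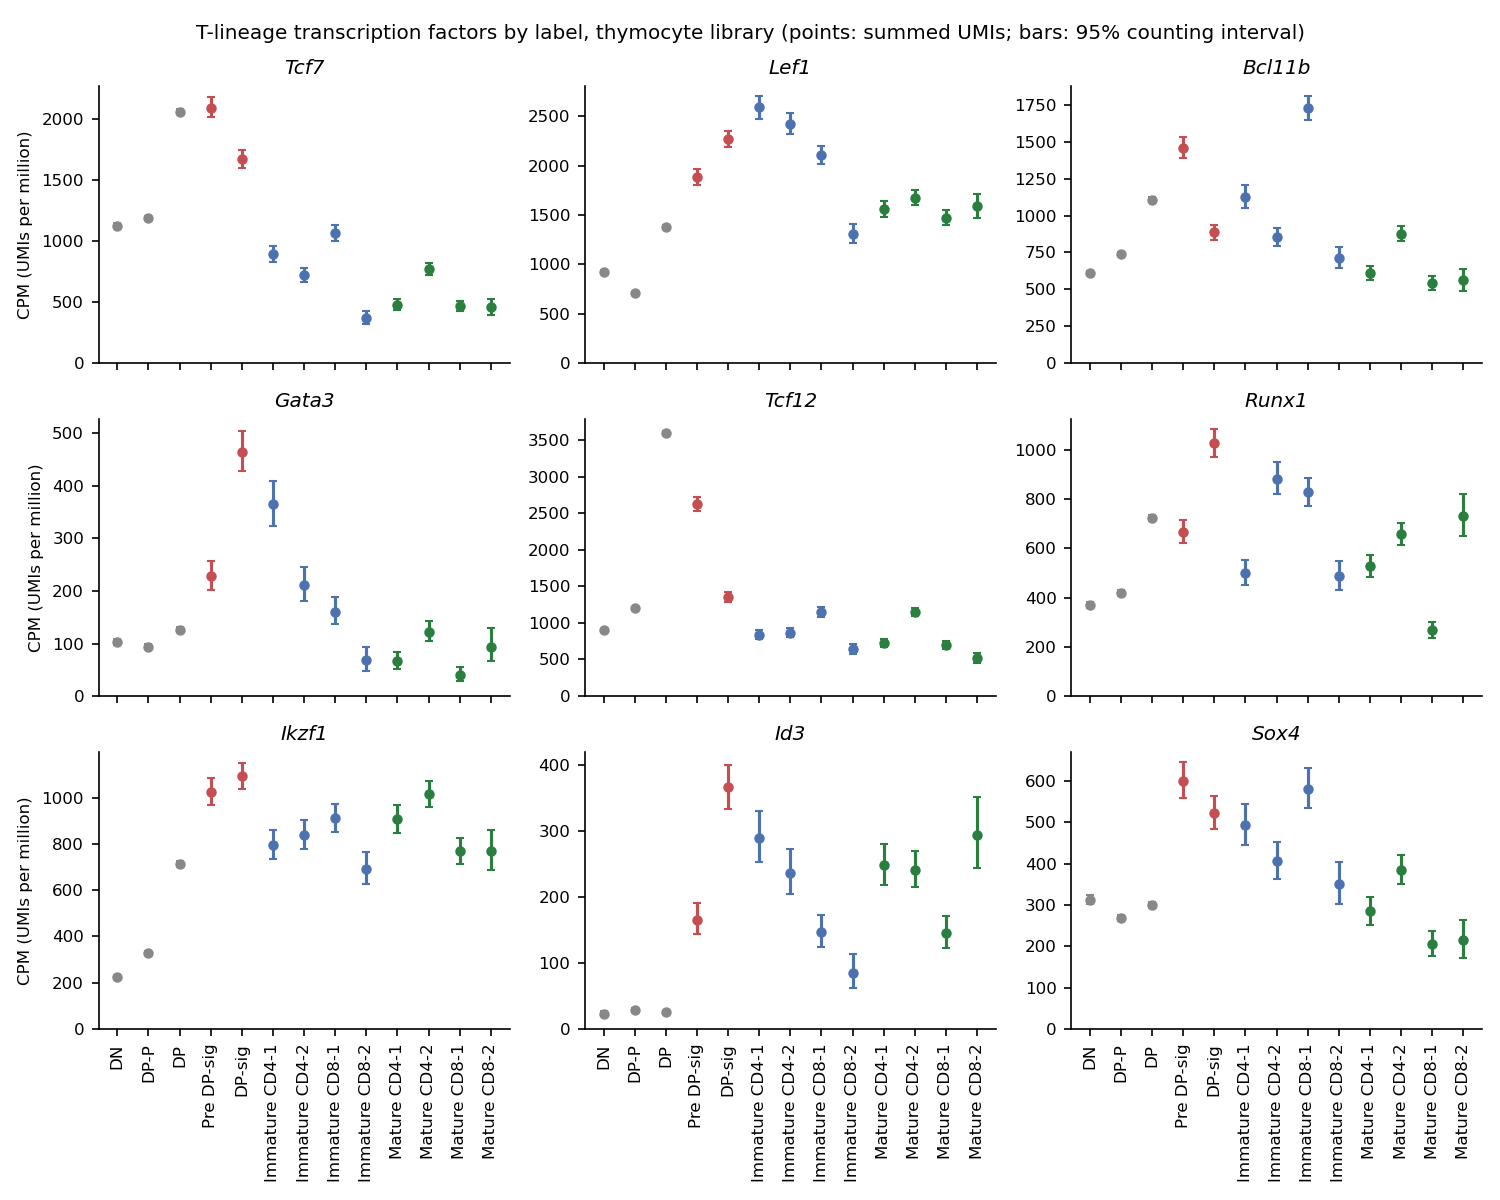
Level of each of the 9 genes in 13 labels of the thymocyte library, in CPM on axes that start at 0. Points are summed UMIs and bars 95% counting intervals. Grey marks DN to DP, red Pre DP-sig and DP-sig, blue the immature and green the mature labels. Tcf12 is highest in DP at 3604 CPM, and Id3 is near 25.2 CPM up to DP and at 366 CPM in DP-sig.

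Over whole labels, the early Id3 levels in CPM were no higher than that of a label of cells that are not thymocytes. The label B+myeloid of the same library, with a median of 11506.5 UMIs per cell, had Id3 at 31.8 CPM, and a UMI of it in 14.7% of cells. After each cell was thinned to 1000 UMIs, the share with an Id3 UMI was 4.94% in B+myeloid, 1.54% in DN, 2.95% in DP-P and 2.19% in DP. The early thymocyte shares lay below that of B+myeloid, but the intervals overlapped, with 2.16 to 9.50% in B+myeloid and 0.567 to 3.32% in DN. Before thinning, the shares were 32.8% in DN, 30.7% in DP-P and 6.61% in DP, at unlike depths. In cluster DP-P3 alone, Id3 was at 47.8 CPM (33.5 to 66.1) in cells labelled DN and 46.15 CPM in DP-P, above B+myeloid. The early values were not read as expression. B cells of the stromal library had Id3 at 122.5 CPM, so the B+myeloid value may hold RNA of its own cells, and the source of the early counts was not tested. The thinned share was 11.4% in Pre DP-sig and 24.1% in DP-sig, with 24.6% and 53.6% before thinning. The Id3 ratios that follow thus have low denominators, whose source is not known.

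In DP-sig against DP, Id3 was 14.6-fold higher (95% interval 12.8 to 16.6) and Tcf12 2.66-fold lower (2.54 to 2.80). From DP-sig to the mature labels together both were lower in CPM, Id3 1.63-fold (1.45 to 1.83) and Tcf12 1.61-fold (1.52 to 1.71). In UMIs per cell both were higher in the mature labels, Id3 1.39-fold and Tcf12 1.41-fold, so the direction depends on the scale. Both differences from DP were already present in Pre DP-sig, where Id3 was 6.59-fold higher than in DP and Tcf12 1.37-fold lower. The Pre DP-sig label held 146 cells of cluster Early SP with Id3 at 239 CPM, 145 of DP1 at 101 CPM and 33 of DP2 at 50.4 CPM. Set against each other, Id3 had 26.0 UMIs per 1000 Tcf12 UMIs in cells labelled DN and 23.9 in DP-P. The value was lower in DP, at 6.98, then 63.1 in Pre DP-sig and 271 in DP-sig. The immature labels had 345.3 in CD4-1, 273.4 in CD4-2, 128.7 in CD8-1 and 132.2 in CD8-2. The mature labels had 344.7 in CD4-1, 210.3 in CD4-2, 208.1 in CD8-1 and 570.1 in CD8-2, a label of 27 cells. Such a ratio of UMIs between genes depends on their lengths and capture and was read only between labels. Within the DP label, Id3 also differed by cluster: 17.2 CPM in the 2186 cells of cluster DP2, 25.9 in the 2916 of DP1 and 97.4 in the 78 of Early SP. In those same clusters Tcf12 was at 4146, 3366 and 3130.3 CPM.

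Tcf7 and Lef1, the HMG box pair, were high at different stages. Tcf7 was at 1123 CPM in cells labelled DN, 1188 in DP-P, 2056 in DP, 2092 in Pre DP-sig and 1669 in DP-sig. Its level in the immature labels lay between 368 and 1061 CPM and in the mature labels between 457 and 769.5 CPM. DP and Pre DP-sig did not differ beyond counting error (ratio 1.02, interval 0.977 to 1.06), and both lay above every other label. Lef1 was at 927 CPM in cells labelled DN, 709.9 in DP-P, 1382 in DP, 1885 in Pre DP-sig and 2269 in DP-sig. It was highest in Immature CD4-1, at 2592 CPM, then 2423 in Immature CD4-2 and 2108 in Immature CD8-1. Immature CD8-2 had 1312 CPM and the 4 mature labels 1473 to 1678 CPM. Lef1 was thus highest later in the stage order than Tcf7.

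Per Tcf7 UMI, there were 0.672 Lef1 UMIs in DP, 0.901 in Pre DP-sig, 1.36 in DP-sig and 2.90 in Immature CD4-1. The ratio was 3.57 in Immature CD8-2 and 2.18 to 3.48 in the mature labels. It crossed 1 between Pre DP-sig and DP-sig, a point that depends on how well each transcript is captured, while the order of the labels does not depend on it. After thinning, the ratio was 0.692 in DP and 1.21 in DP-sig.

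**Figure D2:**
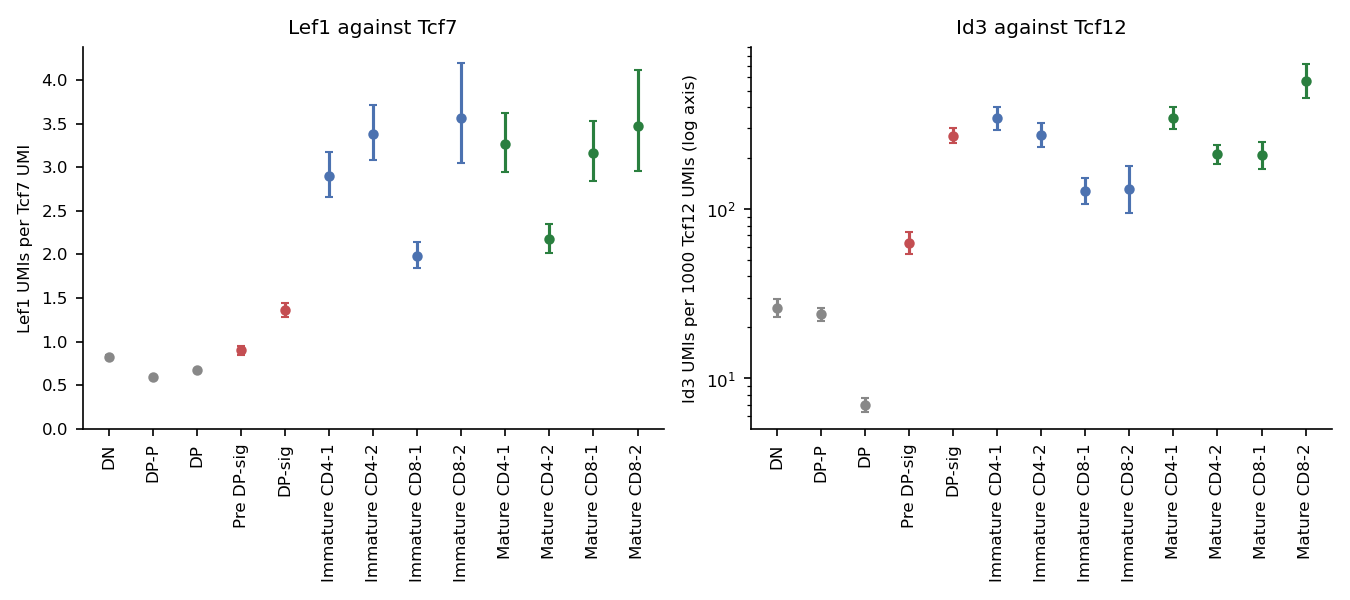
Left, Lef1 UMIs per Tcf7 UMI, and right, Id3 UMIs per 1000 Tcf12 UMIs on a log axis, in the same 13 labels and colours, with 95% counting intervals. The left ratio is 0.672 in DP and 1.36 in DP-sig, and the right one 6.98 and 271.

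The RefSeq window around the Tcf7 start site holds a motif of its own protein family, so it is shown here. It lies on the minus strand of GRCr8, chr10:36954277-36954529, and runs from 250 bases before to 3 bases after the start. Capitals mark CTTTGAT, the sequence bound by TCF1 and LEF1. The Gata3 window, on the plus strand at chr17:73553298-73553547, covers the 250 bases before the start, with the E protein motif CAGCTG in capitals.
Tcf7: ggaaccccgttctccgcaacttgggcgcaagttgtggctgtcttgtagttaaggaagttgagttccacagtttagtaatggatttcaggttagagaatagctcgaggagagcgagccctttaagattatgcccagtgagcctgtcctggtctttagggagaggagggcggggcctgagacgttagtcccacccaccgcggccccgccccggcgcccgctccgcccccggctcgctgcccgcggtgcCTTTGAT
Gata3: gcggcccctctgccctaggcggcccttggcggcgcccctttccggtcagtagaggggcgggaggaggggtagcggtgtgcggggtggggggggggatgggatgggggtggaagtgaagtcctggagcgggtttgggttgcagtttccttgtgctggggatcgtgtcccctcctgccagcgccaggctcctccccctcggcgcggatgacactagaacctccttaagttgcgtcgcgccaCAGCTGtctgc
The Tcf7 match spans the start site, from 4 bases before it to base 3 of the transcript, and the Gata3 match lies 11 to 6 bases before the start. Windows of 300 bases were found for 7 of the 9 genes, all but Bcl11b and Sox4, and were searched on both strands for 6 motifs. Of 33469 rat promoter windows, CTTTGAT was in 3.63%, CAGCTG in 15.1%, CACCTG in 18.8%, the RUNX motif TGTGGT in 17.3%, the GATA motif AGATAA in 11.6% and the EGR motif GCGTGGG in 4.33%. The third match in these genes was CACCTG in Lef1, 31 to 36 bases into the transcript. A match shows only that these letters are present, and the build differs from the one the authors name, mRatBN7.2.

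Gata3, which favours the CD4 fate, was highest in DP-sig. It was at 103 CPM in cells labelled DN, 93.7 in DP-P, 126 in DP, 229 in Pre DP-sig and 465 in DP-sig. Immature CD4-1 had 365 CPM and Immature CD4-2 had 212, while Immature CD8-1 had 161 and Immature CD8-2 had 68.4. The mature labels lay between 40.1 CPM in CD8-1 and 123 CPM in CD4-2. In both stages of immaturity the CD4 label was thus above the CD8 label of the same number. DP-sig stood 3.69-fold above DP (3.37 to 4.04) and 5.67-fold above the 4 mature labels together (4.92 to 6.53).

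Runx1, a DNA-binding partner of CBFB, was at 370.4 CPM in cells labelled DN, 419 in DP-P, 721 in DP, 667 in Pre DP-sig and 1026 in DP-sig. The mature labels ranged from 267 CPM in CD8-1 to 732 in CD8-2. Bcl11b, a factor that fixes T-lineage commitment, was at 611 CPM in cells labelled DN, 739.7 in DP-P, 1109 in DP, 1461 in Pre DP-sig and 886 in DP-sig, and at 543 to 878 CPM in the mature labels.

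Runx1 and Bcl11b were higher in the first immature CD8 label than in the first CD4 label. Cd8a was at 489 CPM in Immature CD8-1 and 147 in Immature CD4-1. Cd4 did not follow the names, at 307 CPM in Immature CD8-1 and 242 in Immature CD4-1. In Immature CD8-2 and Immature CD4-2 both did, with Cd8a at 534 and 196 CPM and Cd4 at 70.2 and 369 CPM. Bcl11b was at 1729 CPM in Immature CD8-1, its highest label, and 1129 CPM in Immature CD4-1, 1.53-fold lower (ratio interval 1.41 to 1.67). Runx1 was at 828 against 499 CPM, 1.66-fold higher in Immature CD8-1 (1.47 to 1.88). Gata3 was 2.27-fold lower there (1.86 to 2.78) and Id3 1.96-fold lower (1.59 to 2.44). The second pair did not repeat this for Runx1 and Bcl11b, with 486 CPM of Runx1 in Immature CD8-2 against 883 in Immature CD4-2, and 713 against 853 CPM of Bcl11b. Median depth was 4970 and 5361 UMIs in the first CD8 and CD4 labels and 7981.5 and 7312 in the second. Cd8a was at 585 CPM in Mature CD8-1 and 184 in Mature CD8-2, against 95.5 in Mature CD4-1 and 303 in Mature CD4-2. Cd4 was at 67.5 and 188.5 CPM in the CD8 labels and 219.5 and 314 in the CD4 labels. Mature CD8-2 thus held less Cd8a than Mature CD4-2, so Cd8a did not bear out its name. With the 2 mature CD8 labels pooled against the 2 mature CD4 labels, Runx1 was 1.47-fold lower in CD8 (1.33 to 1.62). Bcl11b was 1.38-fold lower (1.27 to 1.51), and both pooled ratios had the other direction from the first immature pair. For Runx1 the CD8 labels differed, with 267 CPM in CD8-1 and 732 in the 27 cells of CD8-2. Mature CD4-1 and CD4-2 had 527 and 656 CPM of Runx1, both below CD8-2. In the same pools, Gata3 was 1.72-fold lower in mature CD8 (1.32 to 2.26), Sox4 1.63-fold lower (1.42 to 1.87) and Lef1 1.08-fold lower (1.02 to 1.14). Gata3 had 40.1 and 94.2 CPM in CD8-1 and CD8-2, against 65.9 and 123 in CD4-1 and CD4-2. In UMIs per cell Runx1 was 1.16-fold, Bcl11b 1.10-fold, Gata3 1.37-fold and Sox4 1.29-fold lower in mature CD8, and Lef1 1.17-fold higher.

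Ikzf1, which codes for IKAROS, had its lowest stage levels in cells labelled DN and DP-P. It was at 224 CPM in cells labelled DN, 328 in DP-P, 713 in DP, 1025 in Pre DP-sig and 1091 in DP-sig. The 8 immature and mature labels lay between 693 and 1014 CPM. Neighbours in its order of 13 labels did not differ beyond counting error in 9 of 12 pairs. That number was 10 for Sox4, 7 for Bcl11b and Id3, 6 for Gata3, Tcf12 and Runx1, 5 for Tcf7 and 4 for Lef1. Sox4 varied least, 2.92-fold between its highest label, Pre DP-sig at 601 CPM, and its lowest, Mature CD8-1 at 206 CPM. It was at 313 CPM in cells labelled DN, 268 in DP-P, 300.2 in DP and 522 in DP-sig.

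In the DP against DN comparison, 7 of the 9 genes were higher in CPM in DP beyond counting error, and 9 of 9 were lower per cell. No share over all genes was computed for either count. Mean depth was 27775.4 UMIs per cell in DN and 3636.1 in DP, so the per-cell counts were not read as a result about these genes. At least 2-fold higher on the CPM scale were 2 genes, Tcf12 at 3.99-fold (3.90 to 4.07) and Ikzf1 at 3.19-fold (3.05 to 3.33), where 26.3% of 11956 genes were. None was at least 2-fold lower, where 18.9% of genes were. The median log2 ratio was 0.86 over the 9 and 0.25 over all genes. Id3 and Sox4 did not differ beyond counting error. The number of UMIs per cell gave ratios of 0.126 to 0.522, and 8 genes were at least 2-fold lower. That count, and the later counts in UMIs per cell, have no share over all genes beside them. A cell labelled DN held 31.2 Tcf7 UMIs and 25.1 Tcf12 UMIs on average, and one labelled DP held 7.48 and 13.1. The 2 scales thus gave opposite directions for 7 genes, all but Id3 and Sox4.

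The value for cells labelled DN was a mixture of clusters. In its cluster DN, with a median of 37879 UMIs, Tcf12 was at 685 CPM and Lef1 at 1033 CPM. In cluster DP-P2, with a median of 11832 UMIs, Tcf12 was at 1674 CPM and Lef1 at 591 CPM. Sox4 was at 358 CPM in the first and 171 in the second, and Tcf7 at 998 and 1463. With the DN label limited to its cluster DN, 4 of the 9 genes were at least 2-fold higher in DP in place of 2. With cells that held an Mki67 or Top2a UMI left out, 8 cells labelled DN remained and 6 genes were at least 2-fold higher. No share over all genes was computed for these counts of 4 and 6, so they were not read as a result about these genes.

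**Figure D3:**
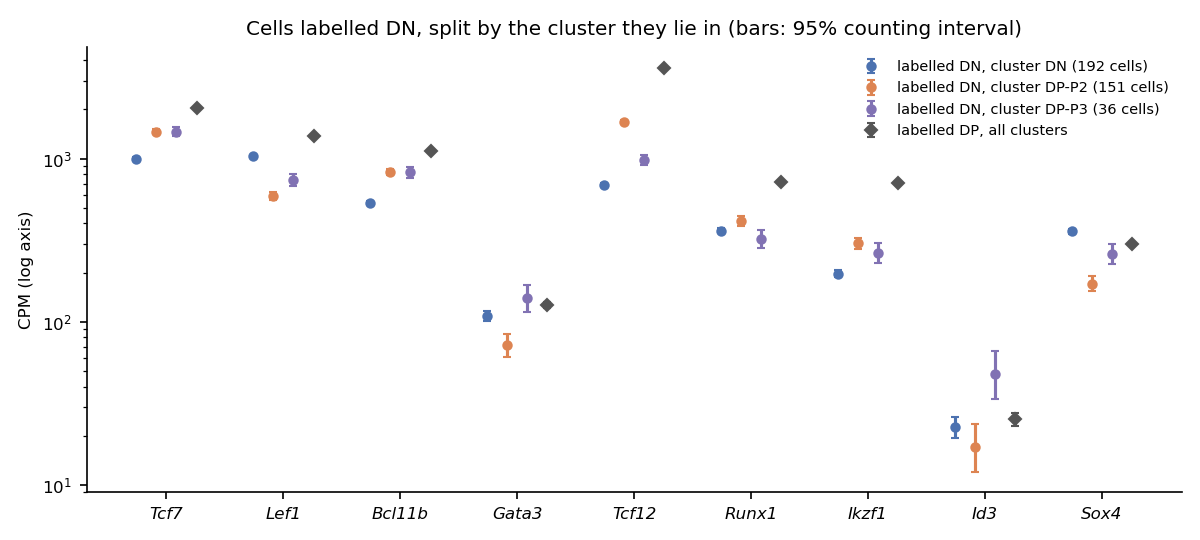
CPM, on a log axis, of the 9 genes in cells labelled DN that lie in cluster DN (192 cells), DP-P2 (151) and DP-P3 (36), and in all cells labelled DP, with 95% counting intervals. Tcf12 is at 685 CPM in cluster DN and 1674 in DP-P2, and Lef1 has the reverse order at 1033 and 591 CPM.

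In the DP-sig against DP comparison, 2 of the 9 genes were at least 2-fold higher, Id3 and Gata3, where 10.3% of 10942 genes were. Only Tcf12 was at least 2-fold lower, where 9.69% were. Below that size, Sox4 was 1.74-fold, Lef1 1.64-fold, Ikzf1 1.53-fold and Runx1 1.42-fold higher, and Tcf7 and Bcl11b were 1.23-fold and 1.25-fold lower. The median log2 ratio was 0.61 over the 9 and 0.02 over all genes. All 9 genes had the same direction in UMIs per cell, where Sox4 also passed 2-fold. Of the 295 cells labelled DP-sig, 284 lay in cluster Early SP.

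In the mature SP against DP comparison, with the 366 cells of the 4 mature labels as mature SP, Id3 alone was at least 2-fold higher, at 8.92-fold (7.95 to 10.0), where 11.7% of 11727 genes were. Tcf12 was 4.29-fold lower (4.14 to 4.45) and Tcf7 3.59-fold lower (3.44 to 3.75), where 18.8% of genes were at least 2-fold lower. In UMIs per cell these were 1.57-fold and 1.32-fold lower, and 4 genes were at least 2-fold higher. In the mature SP against DN comparison, Id3 was 9.53-fold higher (8.27 to 11.0) and Ikzf1 3.99-fold higher (3.78 to 4.20), where 15.7% of 11811 genes were at least 2-fold higher. None of the 9 was at least 2-fold lower, where 19.4% were, and the lowest was Tcf7, 1.96-fold lower. In UMIs per cell, Ikzf1 was 1.42-fold and Id3 3.41-fold higher, and 5 genes were at least 2-fold lower. Small differences in that comparison, 1.08-fold lower for Tcf12 and Sox4, changed sign when mitochondrial, ribosomal protein and haemoglobin genes were left out of the totals. Of mature SP cells, 124 held a UMI of a B or myeloid marker, and without them every ratio of the 9 genes stayed within its interval. Mature CD4-2, which held Rag1 at 199.4 CPM, had the highest Tcf12 and Tcf7 of the mature labels, at 1149 and 769.5 CPM. The part of that label in the mature SP ratios was not tested.

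**Figure D4:**
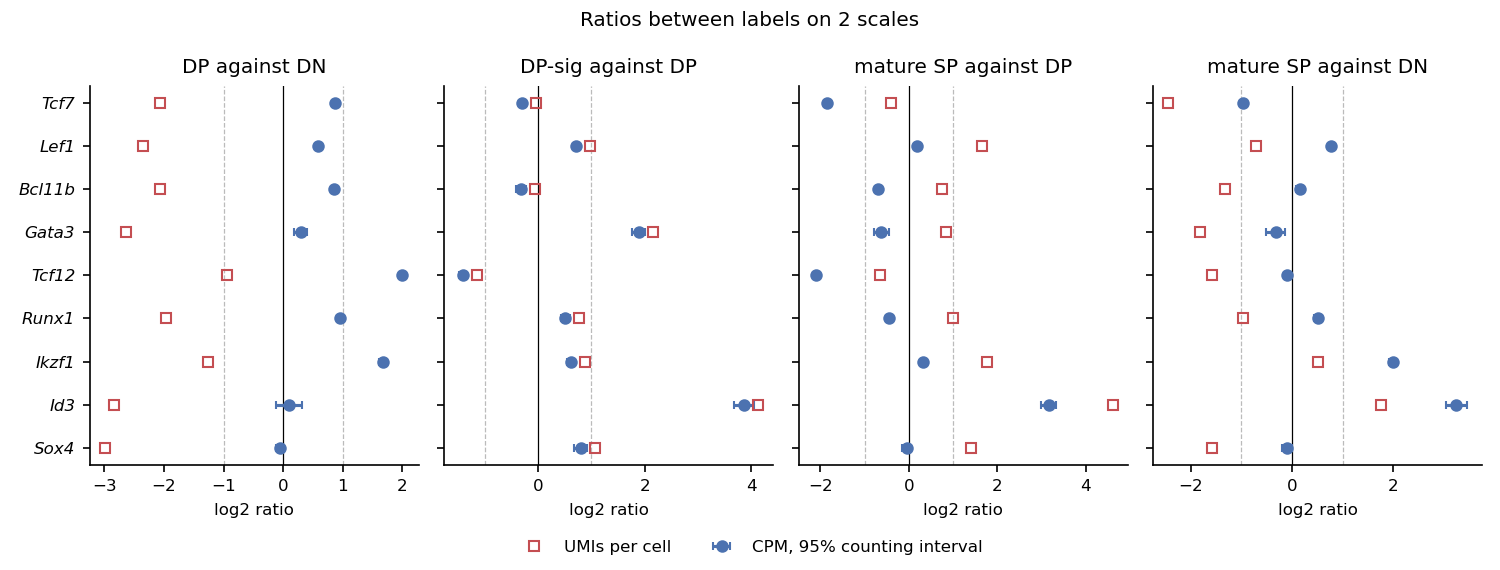
Log2 ratios of the 9 genes in 4 comparisons, from CPM (filled circles, bars for 95% counting intervals) and from UMIs per cell (open squares), with dashed lines at 2-fold. In DP against DN all squares lie to the left of 0 and 8 circles to the right, while in DP-sig against DP both marks lie on the same side for each gene.

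Labels outside the stage order carried their own combinations. Cells labelled gdT numbered 128, of which 111 lay in cluster DN, and held Kit at 47.4 CPM, Dntt at 480.5 CPM and Rag1 at 347.5 CPM, genes of early thymocytes. Against cells labelled DN, Runx1 was 2.84-fold higher in gdT (2.70 to 2.98), at 1051 CPM, and Sox4 1.52-fold higher. Id3, which is known to be induced by the gamma delta receptor, had 40 UMIs there, 14.7 CPM, the lowest of 20 labels and below the B+myeloid level. In 37 cells labelled Treg, against 55 labelled Pre-Treg, Lef1 was 2.48-fold lower (2.14 to 2.88) at 729 CPM and Gata3 2.18-fold higher (1.55 to 3.07) at 287 CPM. Cd79a, a B cell gene, had 445 CPM in Treg and 271 in Pre-Treg, with Ms4a1 at 0 in both. Its part in these values was not tested. AgoSel2, an agonist-selected label of 58 cells, had the lowest Bcl11b, 284 CPM, against 540.4 in the 70 cells of AgoSel1. AgoSel1 had the highest Sox4, 694 CPM, 1.16-fold above Pre DP-sig (1.01 to 1.32). After thinning AgoSel2 was higher, at 672 CPM against 571 in AgoSel1, so the rank depends on the scale.

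Against the label B+myeloid, all thymocyte labels stood higher for Tcf7, Lef1, Bcl11b, Gata3, Tcf12, Runx1, Ikzf1 and Sox4. B+myeloid had Tcf7 at 102 CPM, Lef1 at 84.9, Bcl11b at 62.7 and Gata3 at 10.9, and Tcf12 at 329. After thinning, a Tcf7 UMI was found in 7.41% of B+myeloid cells, 83.0% of DP cells and 29.8% of Mature CD4-1 cells, with 24.1%, 98.6% and 94.2% before thinning. Gata3 UMIs after thinning were in 2.47% of B+myeloid cells and 34.6% of DP-sig cells, and 2.20% of Mature CD8-1 cells. In CPM, Mature CD8-1 was higher, at 40.1 (lower bound 28.4) against 10.9 (upper bound 15.9), so no order was read from that share. Median depth was 11506.5 UMIs in B+myeloid, 7964 in Mature CD4-1 and 10290.0 in Mature CD8-1.

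Other regulators of these families were described from lists drawn up beside the 9 genes. Among 8 E proteins and partners, 4 of the 6 with a ratio were at least 2-fold lower in mature SP than in DP and 1 higher (median log2 ratio -1.60, against -0.29 for all genes), where 18.8% and 11.7% of all genes were. Tcf4, which codes for another E protein, was 4.93-fold lower (4.48 to 5.43). Tcf3, also an E protein gene, went the other way, with 24.8 CPM in mature SP and 18.3 in DP. It was 2.32-fold lower in DP than in cells labelled DN, so the high DP level of Tcf12 and Tcf4 was not shared by Tcf3. Id2, a second ID protein, was 41.7-fold higher (20.8 to 94.8) at 19.8 CPM. Id1, a further ID protein of the list, went the other way, 5.57-fold lower in mature SP than in DP, at 1.10 against 6.13 CPM. Hes1, a Notch target, was 26.3-fold lower in DP than in cells labelled DN (20.3 to 34.6), at 3.22 against 84.7 CPM. In DP-sig against DP, none of the 4 genes of this list with a ratio passed 2-fold in either direction.

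Of 13 relatives and cofactors of TCF1 and LEF1, 7 had a ratio in DP-sig against DP, and 2 were at least 2-fold higher and none lower (median log2 ratio 0.40, against 0.02), where 10.3% and 9.69% of all genes were. These were Tox, an HMG box factor of CD4 development, 15.6-fold higher (14.9 to 16.3) at 3352 CPM, and its relative Tox2, 29.6-fold higher (21.7 to 40.8). Of 10 relatives and partners of RUNX1, IKAROS and GATA3, 7 had a ratio, and 4 were at least 2-fold higher and none lower (median 1.40, against 0.02), where 10.3% and 9.69% of all genes were. Ikzf2, which codes for HELIOS, was 7.07-fold higher (6.63 to 7.54) and Zfpm1, a GATA cofactor, 5.14-fold higher (3.62 to 7.19). Ikzf3, the relative with the most UMIs, did not differ beyond counting error, with 709 against 753 CPM (ratio 0.942, interval 0.880 to 1.01). Ikzf4 was 20.8-fold higher in mature SP than in DP (8.89 to 56.5) on 28 UMIs.

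Of 10 progenitor regulators, which are active before T commitment, 5 had at least 100 UMIs in the library and 2 a ratio in DP against DN, both at least 2-fold lower, as were 18.9% of all genes. Erg was 3.62-fold lower (2.25 to 5.96), at 5.17 CPM in cells labelled DN. Mef2c had 6 UMIs in cells labelled DN and 4 in DP, 2.62-fold lower in CPM with an interval that holds no difference (0.621 to 12.6). Its 11 UMIs in DP-sig gave a ratio of 40.4 to DP (12.0 to 174). Of 18 other thymocyte regulators, 11 of 17 with a ratio were at least 2-fold higher in DP than in DN and 1 lower (median log2 ratio 1.33, against 0.25), where 26.3% and 18.9% of all genes were. Satb1, a chromatin organiser with the most UMIs of the list, was 3.57-fold higher at 3969 CPM. In DP-sig against DP, 4 of 16 were higher and 3 lower (median 0.16, against 0.02), where 10.3% and 9.69% of all genes were. Egr3, a target of receptor signals, had 15 UMIs in DP-sig and 2 in the larger DP label, a ratio of 110.1 (25.6 to 992). Zbtb7b, the CD4-fate factor ThPOK, was 51.2-fold higher in mature SP than in DP (22.2 to 145) at 16.2 CPM.

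Over 16 thymocyte labels of at least 50 cells, the genes with the most similar course were found among 8409 genes by Pearson's r of log2(CPM + 1). For Id3 they were Cd28 (r = 0.98), Usp28 (0.955) and Cd69 (0.952), and for Tcf12 Pan3 (0.983), Trps1 (0.962) and Osbpl11 (0.96). For Tcf7 they were Ssx2ip (0.967), Gmfg (0.961) and Spindoc (0.958), and for Lef1 Arl6ip5 (0.97), Myl12b (0.949) and Dok2 (0.943). Bcl11b was nearest to Slc22a17 (0.93), Zfp512 (0.927) and Themis (0.884), and Gata3 to Osbpl3 (0.896), Ywhaz (0.892) and Cpne8 (0.891). Runx1 was nearest to Zfp26 (0.878), Spin1 (0.812) and Otud1 (0.804), and Sox4 to Grb2 (0.916), Diaph1 (0.878) and Maco1 (0.859). Ikzf1 was nearest to Dock8 (0.973), Tmem156 (0.969) and Itm2b (0.965). Among the 9 themselves, Tcf7 and Tcf12 were closest (r = 0.88), then Lef1 and Ikzf1 (0.839) and Lef1 and Id3 (0.800). Tcf7 and Lef1 had an r of 0.055, and Tcf12 and Id3 one of -0.299. All labels share 1 library and a common scale, so these are descriptions.

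In the stromal library, a separate preparation with its own free RNA, several of the 9 genes were present outside T cells. Id3 was highest in endothelium, at 693 CPM in venous, 668 in capillary and 438 in arterial cells. Sox4 reached 484 CPM in proliferating medullary epithelium and 443 in mTEC1. Tcf12 was found in every label of at least 50 cells other than Thymocyte, from 129.5 CPM in myeloid cells to 471 in arterial endothelium. Runx1 was at 401 CPM in myeloid cells and 382 in B cells, and Ikzf1 at 226 CPM in mTEC2, 101 in proliferating medullary epithelium and 260 in B cells. Lef1 reached 333 CPM in B cells. Bcl11b was at 59.2 CPM in cTEC and 49.4 in the early progenitor label, but at most 0.928 CPM in the 4 TMC labels and capsular fibroblasts. Tcf7 and Gata3 stayed at or below 53.6 and 6.64 CPM in every label but Thymocyte, where they had 1261 and 124 CPM.

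**Figure D5:**
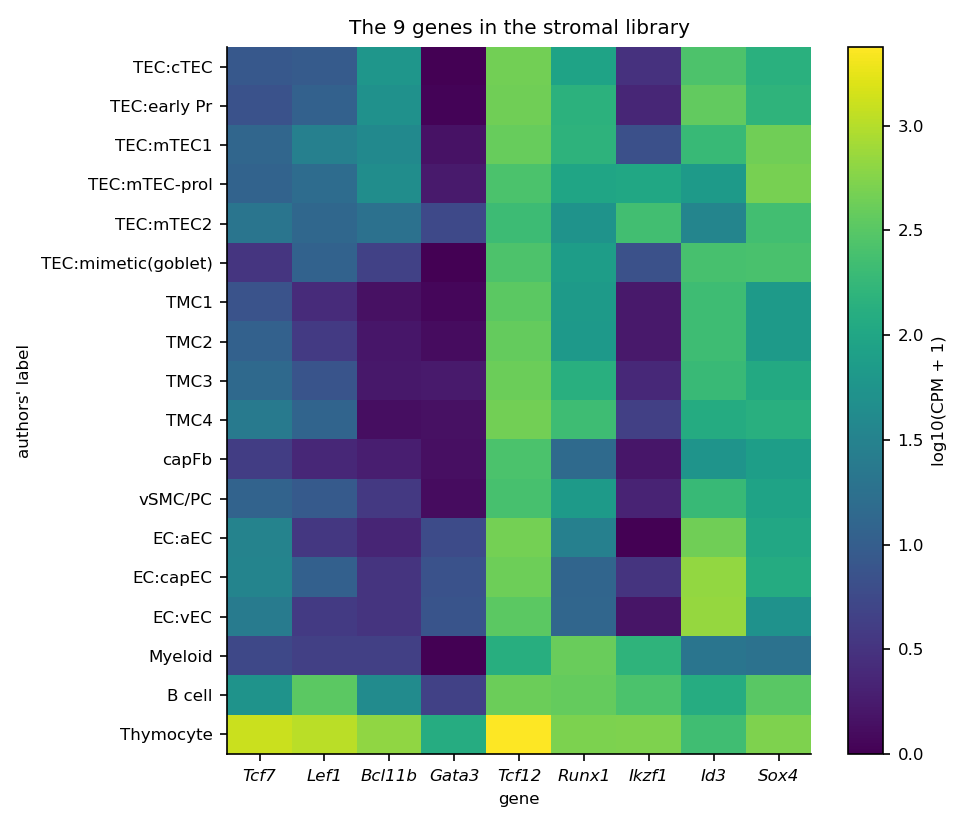
Levels of the 9 genes in 18 labels of the stromal library with at least 50 cells, as log10(CPM + 1) in colour. Cells labelled Thymocyte are bright for Tcf7, Lef1 and Tcf12, endothelial labels (EC) for Id3, and all labels for Tcf12.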

How the data were processed

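Thymocyte and stromal droplet libraries of 8-week-old Lewis rats were analysed, with 1 sample each. The deposited matrices hold whole UMI counts per gene and barcode from Cell Ranger 8.0.0, per the file headers, and the submitters' processing notes also name Seurat 5.3.0 and the build mRatBN7.2. The percent of mitochondrial UMIs deposited by the authors was read but not used as a filter, and mitochondrial shares were computed here from the counts of 15 genes. Cell labels are the authors': the projected label, and the cluster where none was given. The design text says that published mouse data were part of the reference. The 9 genes, the lists and the comparisons were chosen with earlier results of these data known.

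UMIs were summed per label of at least 20 cells (50 for stroma) and scaled to CPM. The 4 labels under 20 cells, with 32 cells, were left out. Ratios of CPM have exact conditional Poisson intervals and shares exact Clopper-Pearson intervals, at 95% and for counting error only. Counts over all genes used genes with at least 100 UMIs. For these counts and medians, a group with 3 UMIs or fewer was set to 3, and genes where both groups had 3 or fewer were left out. Thinning to 1000 UMIs used seed 7 and left out 51 cells. Doublets were neither called nor removed. The rule for named genes was all 9, at most 4 per list (most UMIs, or highest or lowest ratio in a comparison), and 3 similar genes each, among genes with at least 500 UMIs. Id1 was named beyond this rule, because it went the other way from Id2. Some genes of the lists are not reported here.

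Alternatives were cells with at least 1000 UMIs, cells below the 99th percentile of UMIs, CPM averaged over cells, totals that leave out mitochondrial, ribosomal protein and haemoglobin genes, thinning, clusters in place of projected labels, median-of-ratios factors, and leaving out cells with cycling or B and myeloid UMIs. UMIs per cell and the DN label within its cluster were added after seeing the data. The code was tested on simulated counts. Sequences are from RefSeq (GRCr8). Python 3.11.15, NumPy 2.4.6 and SciPy 1.17.1 were used.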

Additional observations from a re-analysis of the deposited data

Results flagged for a closer look

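The thymocyte library held 28 barcodes without a label, with 27563 UMIs in all and a median of 764.5, which no comparison used. They held 14 UMIs of the 9 genes: 4 each of Tcf7 and Runx1, 3 of Tcf12, 2 of Lef1 and 1 of Sox4. Bcl11b, Gata3, Ikzf1 and Id3 had 0, which allows up to 108.8 CPM, the level of 3 UMIs. The set was taken up because these barcodes lie outside the described cells and carry T-lineage transcripts. Tcf7 was at 145 CPM there (95% exact interval 39.5 to 372), against 1319.8 CPM over labelled cells.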

How the results depend on the processing

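Of 333 member ratios under the alternatives other than UMIs per cell, 208 lay within their counting interval, 117 outside it in the same direction and 8 reversed. As log2 ratios, reversed, Gata3 in mature SP against DP was 0.037 with clusters as labels, and in mature SP against DN 0.033 after thinning and 0.35 with clusters. In mature SP against DN, Tcf12 was 0.0047 without mitochondrial, ribosomal protein and haemoglobin genes and 0.29 with DN within its cluster, and Sox4 was 0.0046 without those genes, 0.19 as the mean of cells and 0.045 without cycling cells. UMIs per cell reversed 13. In DP against DN these were Tcf7 at -2.06, Lef1 -2.36, Bcl11b -2.07, Gata3 -2.64, Tcf12 -0.94, Runx1 -1.97 and Ikzf1 -1.26. In mature SP against DP they were Bcl11b at 0.74, Gata3 0.83 and Runx1 1.00, and in mature SP against DN Lef1 at -0.71, Bcl11b -1.33 and Runx1 -0.98. The difference in depth between labels sets the gap between the scales.

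Of 82 counts of genes past 2-fold, 71 stayed within 1.5 times of their value. Shares over all genes were computed for the main setting only, so the counts under alternatives have none beside them. In DP against DN the 2 higher became 6 without cycling cells, 4 with DN within its cluster and 0 in UMIs per cell, where the 0 lower became 8. In mature SP against DP, UMIs per cell gave 4 higher in place of 1 and 0 lower in place of 2. In mature SP against DN, the 2 higher became 4 without cycling cells and 1 in UMIs per cell. The 0 lower became 1 as the mean of cells, 1 after thinning and 5 in UMIs per cell. In DP-sig against DP the counts had the same values under the alternatives run, except 3 higher in place of 2 in UMIs per cell. Clusters gave no value for DP-sig, which no cluster is named for. Median-of-ratios scaling moved DP against DN by 0.22 and mature SP against DP by -0.24 on the log2 scale. No paired analysis was possible because a group is 1 sample and no replicate numbers exist to pair. With 1 library, differences between animals are unknown.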
